A study of Mus musculus with 8 samples.

Results

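Genes of macrophages, monocytes and leukocytes in general were followed in the heart ventricles of mice that lacked the SoxD transcription factor genes Sox5 and Sox6 in cardiomyocytes. The 39 members were chosen by gene name. Of these, 38 were found under their own symbol in the authors' gene table of 23100 loci, and Spi1 was found as Sfpi1, its synonym in RefSeq. Ventricles came from 4 double knockout (DKO) and 4 control (Ctrl) mice aged 4.5 months. DKO mice were Sox5fl/fl and Sox6fl/fl and carried an αMHC-Cre transgene, whose promoter drives Cre in cardiomyocytes. Ctrl mice carried the same floxed alleles and no Cre, so Cre itself and the deletion cannot be told apart. The deposited tables hold 1 FPKM value (read fragments scaled to transcript length and library size) per genotype, so no value below carries an error per animal. A gene was called when its q-value from the authors' Cuffdiff comparison was at most 0.05.

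Cardiac macrophages include a resident population that renews itself in the tissue and carries genes such as Lyve1, Timd4 and Folr2. Another population is replaced from circulating monocytes, which carry Ly6c2 and Ccr2. Macrophages depend on signals through Csf1r, and their lineage is set by Spi1, the transcription factor PU.1. Genes such as Ptprc mark leukocytes of every kind, and the phagocyte oxidase is the enzyme complex with which these cells make superoxide.

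The series title speaks of pressure overload, but the labels give these mice no operation. Sox6 was lower in DKO, at 1.69 FPKM against 3.39 FPKM in Ctrl (q = 0.00158, authors' deposited table). Sox5 was at 0.497 FPKM in DKO and 0.369 FPKM in Ctrl and was not tested by Cuffdiff. Cells without active Cre keep both genes, so these totals check the labels only in part. The heart muscle markers of the labelled tissue were abundant, with Myl2 at 17014 and Mb at 14207 FPKM in DKO, against 20639 and 17576 FPKM in Ctrl.

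Most tested members were higher in DKO ventricles. Of the 36 members that Cuffdiff tested, 22 were called higher and none was called lower. The share of all 12133 tested genes that was called higher was 4.3%, and 3.06% were called lower. The median ratio of DKO over Ctrl was 1.499 among the tested members and 0.997 among all tested genes. Called members rose by between 1.46-fold, for Irf8, and 2.65-fold, for Mpeg1, and 4 of them rose at least 2-fold. Of the 14 tested members that were not called, 11 had a ratio above 1. At an unadjusted Cuffdiff p under 0.05 stood 29 of the 36, all with a ratio above 1, against 16.5% of all tested genes in either direction. At a q under 0.01, 15 members were higher, against 2.74% of all tested genes, and at a q of at most 0.1 it was 26 members, against 5.45%. Plac8, Fgr and Csf2rb were not tested by Cuffdiff. In bulk tissue, more cells of a type and more RNA per cell cannot be told apart.

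Levels in Ctrl ran between 0.229 FPKM, for Fgr, and 107 FPKM, for Lyz2. They were under 5 FPKM for 24 of the 39 members, and the median was 3.89 FPKM in DKO and 2.58 FPKM in Ctrl. The median over all tested genes was 10.06 FPKM in DKO and 10.02 FPKM in Ctrl, so most members lie in the lower part of the range in this tissue. FPKM values are per transcript length and can be compared between genes.

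**Figure D1:**
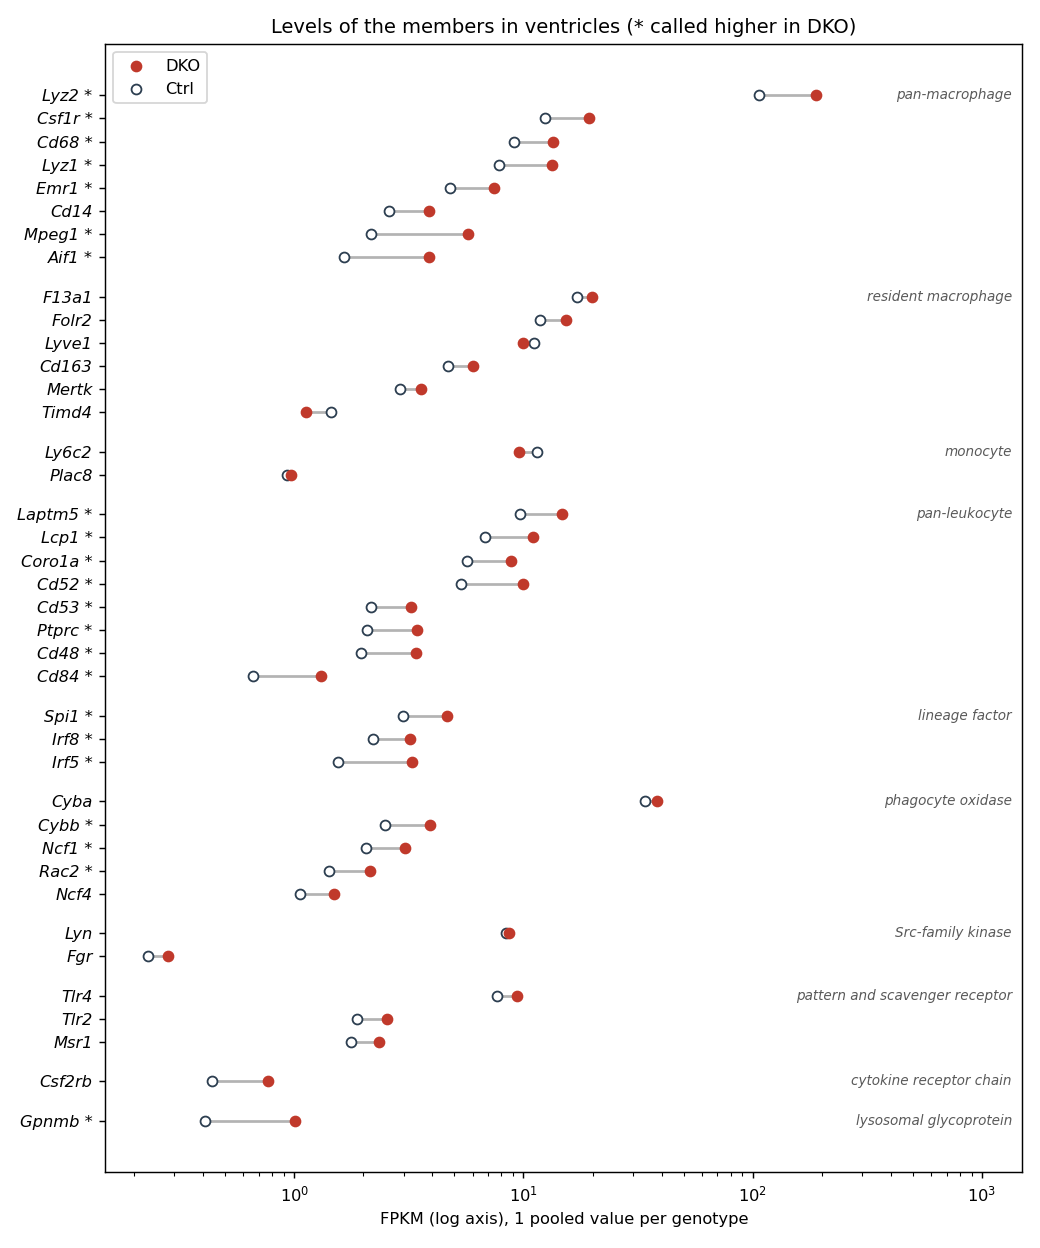
FPKM of each of the 39 members (log axis) in DKO (filled) and Ctrl (open), 1 pooled value per genotype, grouped by role and marked with a star where called higher in DKO. All members except Lyve1, Timd4 and Ly6c2 lie further right in DKO, and Lyz2 has the highest level.

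Of the 8 pan-macrophage members, 7 rose and the median ratio was 1.63. Mpeg1, which encodes the pore-forming protein perforin-2 of phagocytes, was at 5.75 FPKM in DKO and 2.17 FPKM in Ctrl. Its locus lies on chromosome 19 at 12535269 to 12539775 in the mm9 build. Its ratio was the highest of all members (q = 0.00158, authors' deposited table). Aif1, which encodes the actin-binding protein Iba1, was 2.35-fold higher, at 3.88 FPKM in DKO and 1.65 FPKM in Ctrl. Its q was 0.00407 in the authors' deposited table, and the locus is on chromosome 17 at 35307937 to 35312946.

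The surface receptors and Cd68 had smaller ratios. Csf1r, the receptor for the growth factors CSF1 and IL34, was at 19.3 FPKM in DKO and 12.4 FPKM in Ctrl (1.56-fold). Emr1, which encodes the adhesion receptor F4/80, had the same ratio of 1.56, at 7.44 FPKM in DKO and 4.77 FPKM in Ctrl. Cd68, a glycoprotein of lysosomes and endosomes, was 1.49-fold higher, at 13.5 FPKM in DKO and 9.07 FPKM in Ctrl. Cd14, the co-receptor for lipopolysaccharide, had nearly the ratio of Cd68, at 3.86 FPKM in DKO and 2.58 FPKM in Ctrl. It was not called (q = 0.0507, authors' deposited table).

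Both lysozyme genes rose. Lyz2, the lysozyme of macrophages and other myeloid cells, was at 189 FPKM in DKO and 107 FPKM in Ctrl (1.77-fold). Lyz1, known as the lysozyme of Paneth cells in the gut, was at 13.3 FPKM in DKO and 7.86 FPKM in Ctrl (1.70-fold). Lyz2 stood 14.1 times above Lyz1 in DKO and 13.6 times in Ctrl. The copies lie side by side on chromosome 10, at 116714597 to 116719328 for Lyz2 and 116724851 to 116729924 for Lyz1 in mm9. Of the 50-base windows of the Lyz1 transcript in GENCODE M21, 16.1% occur unchanged in Lyz2, and reads from such stretches cannot be assigned by sequence alone. The single values of Lyz1 and Lyz2 are therefore uncertain. Their likeness extends upstream of the gene start. The 250 bases before each start are shown from RefSeq, build GRCm38.p6, minus strand, at chr10:117282273-117282522 for Lyz2 and chr10:117292869-117293118 for Lyz1. Capitals mark the longest run that both share, 50 bases that end at the gene start.
Lyz2: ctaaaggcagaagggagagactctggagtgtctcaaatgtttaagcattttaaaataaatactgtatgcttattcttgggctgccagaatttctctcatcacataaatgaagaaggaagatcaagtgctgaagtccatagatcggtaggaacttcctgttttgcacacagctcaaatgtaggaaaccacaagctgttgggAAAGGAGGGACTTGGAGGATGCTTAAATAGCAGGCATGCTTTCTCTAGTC
Lyz1: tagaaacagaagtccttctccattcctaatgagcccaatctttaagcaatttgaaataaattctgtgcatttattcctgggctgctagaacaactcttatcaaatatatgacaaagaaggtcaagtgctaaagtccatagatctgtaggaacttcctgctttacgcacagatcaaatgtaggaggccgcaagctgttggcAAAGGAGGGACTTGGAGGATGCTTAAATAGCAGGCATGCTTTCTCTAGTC

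All 8 pan-leukocyte members rose, by between 1.495-fold and 1.97-fold, with a median ratio of 1.64. Ptprc, which encodes the tyrosine phosphatase CD45, was at 3.42 FPKM in DKO and 2.07 FPKM in Ctrl (1.65-fold, q = 0.00158, authors' deposited table). Cd84 and Cd48, adhesion receptors of the SLAM family, were 1.97-fold and 1.75-fold higher. Cd84 was at 1.305 FPKM in DKO and 0.662 FPKM in Ctrl, and Cd48 at 3.41 FPKM in DKO and 1.95 FPKM in Ctrl. Cd52, a small surface glycoprotein of lymphocytes and myeloid cells, was at 9.97 FPKM in DKO and 5.35 FPKM in Ctrl (1.86-fold).

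The remaining 4 pan-leukocyte members had ratios between 1.495 and 1.62. Lcp1, the actin-bundling protein L-plastin, was at 11.0 FPKM in DKO and 6.81 FPKM in Ctrl (1.62-fold). Coro1a, an actin-binding coronin, was at 8.79 FPKM in DKO and 5.65 FPKM in Ctrl (1.56-fold). Laptm5, a lysosomal membrane protein, was at 14.7 FPKM in DKO and 9.66 FPKM in Ctrl (1.52-fold), and it had the highest level of the 8. The tetraspanin gene Cd53 was at 3.23 FPKM in DKO and 2.16 FPKM in Ctrl (1.495-fold).

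These genes are shared by lymphocytes and granulocytes, whose own markers were read beside them. None of the 11 T cell markers and none of the 8 NK cell markers was tested by Cuffdiff. The T cell markers summed to 3.11 FPKM in DKO and 2.05 FPKM in Ctrl, and the NK cell markers to 2.22 FPKM in DKO and 0.859 FPKM in Ctrl. The value was higher in DKO for 9 of the 11 T cell markers and all 8 NK cell markers. Of the T cell receptor subunit genes, Cd3e was at 0.260 FPKM in DKO and 0.0200 FPKM in Ctrl, and Cd3d at 0.167 FPKM in DKO and 0.0423 FPKM in Ctrl. The 7 B cell markers summed to 8.34 FPKM in DKO and 4.25 FPKM in Ctrl. Cuffdiff tested Cd79b, which was not called at 1.42 FPKM in DKO and 0.752 FPKM in Ctrl (1.89-fold, q = 0.0988, authors' deposited table) but stood at an unadjusted Cuffdiff p under 0.05. Cuffdiff also tested the kinase gene Blk, which rose 2.53-fold, at 4.46 FPKM in DKO and 1.76 FPKM in Ctrl. In DKO, Blk was thus above Ptprc, Cd48, Cd53 and Cd84 in level. It had the highest value of the B cell markers in both genotypes and made up most of their sum in DKO. The 5 untested B cell markers all had higher values in DKO. The neutrophil calprotectin genes S100a8 and S100a9 were neither called nor at an unadjusted Cuffdiff p under 0.05, at 2.84 and 2.45 FPKM in DKO against 1.93 and 2.75 FPKM in Ctrl. All listed T, B and NK cell markers were above 0 in both genotypes. The part of these cells in the pan-leukocyte values was not tested.

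None of the 6 resident macrophage members was called, and their median ratio was 1.199. At an unadjusted Cuffdiff p under 0.05 stood 4 of the 6, all with a ratio above 1. Cd163, the scavenger receptor for haemoglobin bound to haptoglobin, was at 5.99 FPKM in DKO and 4.71 FPKM in Ctrl (1.27-fold, q = 0.0515, authors' deposited table). Folr2, which encodes folate receptor beta, was at 15.4 FPKM in DKO and 11.8 FPKM in Ctrl (1.303-fold, q = 0.0727, authors' deposited table). Mertk, a receptor kinase for the engulfment of dying cells, was at 3.58 FPKM in DKO and 2.90 FPKM in Ctrl (1.24-fold). F13a1, the catalytic chain of coagulation factor XIII, was at 19.9 FPKM in DKO and 17.1 FPKM in Ctrl (1.16-fold).

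The other two resident members had ratios below 1. Timd4, a receptor for phosphatidylserine on dying cells, was at 1.13 FPKM in DKO and 1.45 FPKM in Ctrl, a ratio of 0.778 and the lowest of all 39 members. Its q was 0.491 in the authors' deposited table, and its locus is on chromosome 11 at 46624301 to 46657835 in mm9. Lyve1, a receptor for hyaluronan, was at 9.94 FPKM in DKO and 11.2 FPKM in Ctrl, a ratio of 0.891 (q = 0.545, authors' deposited table). Lyve1 is also carried by lymphatic endothelium, whose markers Prox1 and Flt4 were at 17.9 and 6.22 FPKM in DKO and 18.3 and 6.04 FPKM in Ctrl. The other tested lymphatic marker, Pdpn, was at 3.16 FPKM in DKO and 2.23 FPKM in Ctrl (1.42-fold, q = 0.0979, authors' deposited table). None of the 3 was called, and Pdpn stood at an unadjusted Cuffdiff p under 0.05. The part of lymphatic endothelium in the Lyve1 value was not tested. By level in Ctrl, F13a1, Folr2, Lyve1, Cd163, Mertk and Timd4 held ranks 3, 5, 7, 17, 19 and 32 among the 39 members.

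The monocyte members showed no call, nor any unadjusted Cuffdiff p under 0.05. Ly6c2, a surface antigen of inflammatory monocytes, was at 9.59 FPKM in DKO and 11.5 FPKM in Ctrl, a ratio of 0.834 (q = 0.502, authors' deposited table). Plac8, a small cysteine-rich protein of myeloid cells, was at 0.965 FPKM in DKO and 0.932 FPKM in Ctrl and was not tested. The Ly6c2 value is uncertain, because 32.6% of the 50-base windows of its transcript in GENCODE M21 occur in Ly6c1, an antigen of endothelial cells. Ly6c1 was at 159 FPKM in DKO and 163 FPKM in Ctrl, or 16.6 and 14.2 times the level of Ly6c2. Whether reads from Ly6c1 were counted for Ly6c2 was not tested. Among 5 tested genes in a list of other monocyte genes, Ccr2, the receptor for the chemokine CCL2, rose 3.00-fold (1.82 FPKM in DKO and 0.607 FPKM in Ctrl). In the same list Itgam, an integrin chain of myeloid cells, rose 1.66-fold, and the remaining 3 were not called. Of these 3, Fcgr1 stood at an unadjusted Cuffdiff p under 0.05 (1.56-fold, q = 0.0717, authors' deposited table). Ms4a6c and Ly6i did not, with ratios of 1.21 and 0.725. The median ratio of the 5 tested genes was 1.56, and 6 of the 7 untested genes in this list had higher values in DKO.

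**Figure D2:**
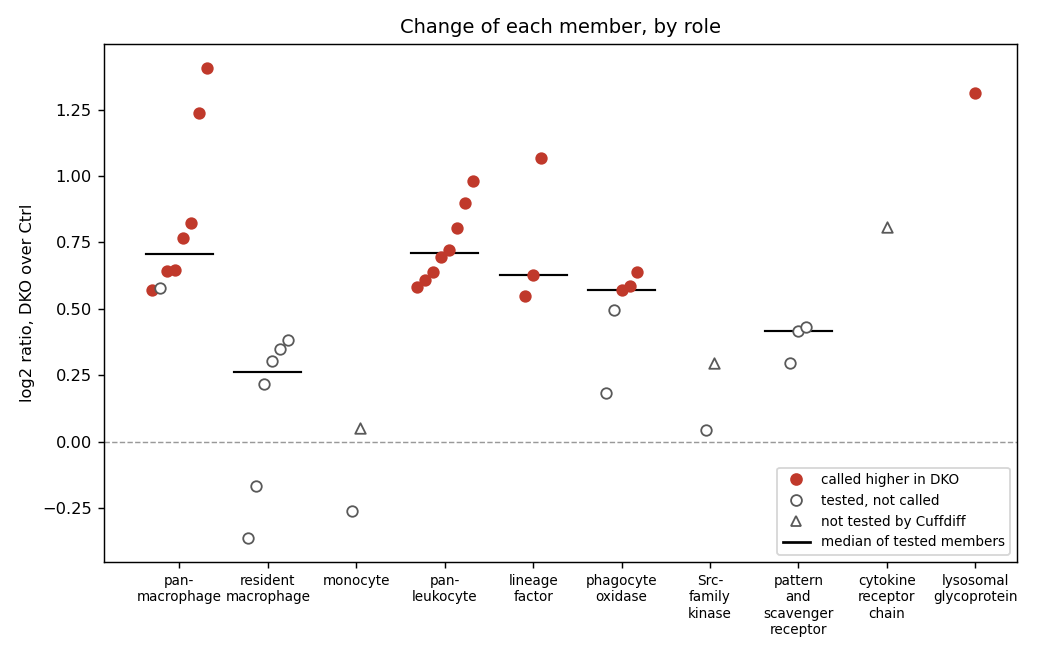
Log2 ratio of DKO over Ctrl for each of the 39 members, by role, with filled circles for called members, open circles for tested members that were not called, triangles for untested members and bars for the median of tested members. All 8 pan-leukocyte members are filled, the 6 resident members are open, and Timd4, Lyve1 and Ly6c2 lie below 0.

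The difference between resident and other members could not be tested without values of single animals. As a description, each level was also divided by that of Csf1r in the same genotype. Lyve1 was at 0.514 of Csf1r in DKO and 0.902 in Ctrl, Timd4 at 0.0583 in DKO and 0.117 in Ctrl, and F13a1 at 1.03 in DKO and 1.38 in Ctrl. A smaller ratio in DKO means only that a member's fold was below the 1.56-fold of Csf1r, and it was found for 26 of the 38 other members. They were all 6 resident, both monocyte, all 5 oxidase, both Src-family and all 3 pattern and scavenger receptor members, 2 of 3 lineage factors, 3 of 8 pan-leukocyte members and 3 of the 7 other pan-macrophage members. For the pan-leukocyte gene Coro1a the ratio was 0.454 in DKO and 0.457 in Ctrl, and for Emr1 0.384 in DKO and 0.385 in Ctrl. The 6 resident members together summed to 2.89 times Csf1r in DKO and 3.97 times in Ctrl. The 5 oxidase members summed to 2.53 times in DKO and 3.30 times in Ctrl. Most of the oxidase sum was Cyba, at 1.98 times Csf1r in DKO and 2.73 times in Ctrl. Cybb was at 0.201 in DKO and 0.202 in Ctrl, Ncf1 at 0.158 and 0.166, Rac2 at 0.110 and 0.115, and Ncf4 at 0.0770 and 0.0854. The 8 pan-leukocyte members summed to 2.89 times in DKO and 2.77 times in Ctrl.

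**Figure D3:**
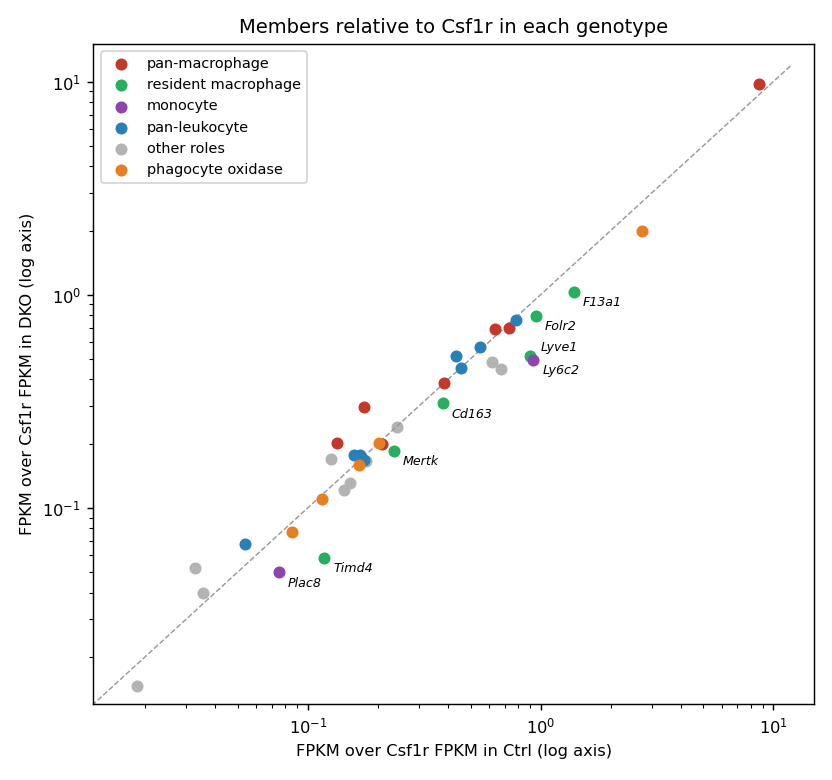
FPKM of each member divided by Csf1r FPKM, in Ctrl (x axis) and DKO (y axis), both axes log, coloured by role, with the dashed line at equal ratios. Of the 38 members other than Csf1r, 26 lie below the line, among them all resident, monocyte, oxidase and pattern and scavenger receptor members. Pan-leukocyte members lie near or above the line, with 3 of 8 below it, and the oxidase members Cybb, Ncf1 and Rac2 also lie near it.

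In a list of 12 further genes of resident macrophages, 4 of 11 tested rose and the median ratio was 1.18. All 11 had a ratio above 1, and 7 stood at an unadjusted Cuffdiff p under 0.05. Sepp1, Gas6 and Fcgrt had the highest levels in this list, at 266, 91.9 and 56.7 FPKM in DKO. In Ctrl they were at 241, 80.4 and 50.1 FPKM, and their ratios were 1.10, 1.14 and 1.13. The part of other cells in these values was not tested. Mrc1, the mannose receptor, was at 11.0 FPKM in DKO and 7.61 FPKM in Ctrl (1.44-fold). Siglec1, a sialic acid receptor, rose 1.83-fold, and Clec10a, a lectin of macrophages and dendritic cells, 1.78-fold. Some resident macrophage genes therefore passed the call that the 6 members did not. In a list of 23 other macrophage genes, all of which were tested, 15 rose and the median ratio was 1.51. They were led by Clec7a, the receptor for fungal glucans (3.34-fold), Lgals3, which encodes galectin-3 (2.66-fold), and Trem2, a lipid receptor (1.97-fold). Of 20 tested loci in a list of other pan-leukocyte genes, 12 rose, among them Sash3, Nckap1l and Fyb, which act in leukocyte signaling and actin assembly (1.77-fold, 1.76-fold and 1.73-fold). The 12 include Arhgdia (1.25-fold), at 116 FPKM in DKO and 93.0 FPKM in Ctrl, the highest level in that list. The part of other cells in the Arhgdia value was not tested.

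All 3 lineage factors rose at the level of gene totals. Spi1, listed as Sfpi1 on chromosome 2 at 90936954 to 90955913 in mm9, was at 4.62 FPKM in DKO and 2.99 FPKM in Ctrl (1.55-fold, q = 0.0261, authors' deposited table). Irf8, which acts with PU.1 in monocyte development, was at 3.21 FPKM in DKO and 2.20 FPKM in Ctrl (1.46-fold). Irf5, a factor of inflammatory gene induction in macrophages, was at 3.27 FPKM in DKO and 1.56 FPKM in Ctrl (2.098-fold). Irf5 was not called by start site group, coding sequence or isoform (q = 0.0816, 0.0857 and 0.115, authors' deposited table). Spi1 was called by start site group and coding sequence but not by isoform (q = 0.0507, authors' deposited table). Among 10 tested genes of other myeloid factors, Egr2 was called, at 1.91-fold higher, and the median ratio was 1.05.

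Motif searches asked whether the letters bound by PU.1 stand in the members' promoters. RefSeq promoters of build GRCm38.p6 were found for 27 members, with 35 starts between them, and the 250 bases before each start were searched on both strands. GAGGAAG, a PU.1 sequence, was found at 11.4% of the member starts and at 10.6% of 32851 starts of all genes. A composite of PU.1 with an IRF partner, GGAA and GAAA with any 2 bases between them, was found at 5.71% of member starts (2 of 35) and at 2.30% of all starts. The motifs overlap in the letters GGAA, and a match describes the sequence only. The matched promoters belong to Laptm5, which rose, and to F13a1, Ly6c2, Folr2 and Timd4, which were not called. They lie at chr4:130913066-130913315 for Laptm5 (plus strand), chr13:37050245-37050494 for F13a1 (minus strand), chr15:75111938-75112187 for Ly6c2 (minus strand), chr7:101857191-101857440 for Folr2 (minus strand) and chr11:46810549-46810798 for Timd4 (plus strand). They are shown because they carry every member match except a second, overlapping start of Ly6c2, with the matched letters in capitals.
Laptm5: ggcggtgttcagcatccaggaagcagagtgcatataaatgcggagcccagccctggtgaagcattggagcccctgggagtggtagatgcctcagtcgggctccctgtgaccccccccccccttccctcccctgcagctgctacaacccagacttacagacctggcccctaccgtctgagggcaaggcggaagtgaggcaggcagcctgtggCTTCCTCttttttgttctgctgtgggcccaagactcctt
F13a1: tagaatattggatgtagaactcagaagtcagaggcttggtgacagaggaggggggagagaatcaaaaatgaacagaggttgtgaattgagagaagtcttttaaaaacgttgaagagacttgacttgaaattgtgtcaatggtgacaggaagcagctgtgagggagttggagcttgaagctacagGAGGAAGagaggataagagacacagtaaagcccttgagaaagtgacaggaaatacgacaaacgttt
Ly6c2: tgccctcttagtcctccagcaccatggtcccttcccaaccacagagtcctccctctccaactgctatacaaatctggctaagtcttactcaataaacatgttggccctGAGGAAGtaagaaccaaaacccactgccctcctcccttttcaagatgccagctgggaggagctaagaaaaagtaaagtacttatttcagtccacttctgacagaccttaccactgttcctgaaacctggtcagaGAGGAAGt
Folr2: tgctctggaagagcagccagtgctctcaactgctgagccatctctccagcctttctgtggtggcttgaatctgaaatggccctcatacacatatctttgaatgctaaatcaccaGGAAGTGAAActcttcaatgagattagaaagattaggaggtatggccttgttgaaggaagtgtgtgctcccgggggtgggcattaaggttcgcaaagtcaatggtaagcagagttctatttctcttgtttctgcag
Timd4: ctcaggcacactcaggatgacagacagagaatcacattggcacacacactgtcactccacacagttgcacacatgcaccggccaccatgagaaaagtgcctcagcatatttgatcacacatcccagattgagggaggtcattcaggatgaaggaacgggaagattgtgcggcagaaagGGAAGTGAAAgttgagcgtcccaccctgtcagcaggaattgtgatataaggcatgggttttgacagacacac
GAGGAAG or its complement stands in Laptm5, F13a1 and Ly6c2, and the composite in Folr2 and Timd4. F13a1 and Folr2 each have a second RefSeq start without a match. Which of these starts the measured transcripts used was not tested.

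Of the 5 members of the phagocyte oxidase, 3 rose. Cybb, the catalytic membrane subunit, was at 3.89 FPKM in DKO and 2.50 FPKM in Ctrl (1.56-fold, q = 0.00158, authors' deposited table). Its locus is on chromosome X at 9012378 to 9046450 in mm9. Ncf1, the cytosolic organizer subunit, was 1.49-fold higher, at 3.06 FPKM in DKO and 2.06 FPKM in Ctrl. The GTPase gene Rac2 was 1.503-fold higher, at 2.13 FPKM in DKO and 1.42 FPKM in Ctrl.

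The remaining oxidase members were not called. Ncf4, a cytosolic subunit, was at 1.49 FPKM in DKO and 1.06 FPKM in Ctrl (1.41-fold, q = 0.373, authors' deposited table). Cyba, the membrane partner of Cybb, was at 38.4 FPKM in DKO and 33.8 FPKM in Ctrl (1.14-fold, q = 0.511, authors' deposited table). Cyba thus stood 9.86 times above Cybb in DKO and 13.5 times in Ctrl, and it also serves oxidases of other cells. In a list of other oxidase genes, Nox4, a catalytic subunit of non-phagocytic cells, rose 1.61-fold (1.12 FPKM in DKO and 0.697 FPKM in Ctrl). The widely expressed GTPase Rac1 was not called, at 86.2 FPKM in DKO and 87.9 FPKM in Ctrl.

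None of the members that act as pattern or scavenger receptors was called. Tlr4, the receptor for lipopolysaccharide, was at 9.39 FPKM in DKO and 7.65 FPKM in Ctrl (1.23-fold, q = 0.0913, authors' deposited table). Tlr2, the receptor for bacterial lipoproteins, was at 2.54 FPKM in DKO and 1.88 FPKM in Ctrl (1.35-fold). Msr1, the class A scavenger receptor, was at 2.35 FPKM in DKO and 1.76 FPKM in Ctrl (1.33-fold). At an unadjusted Cuffdiff p under 0.05 stood 2 of these 3, Tlr2 and Tlr4. In a list of other Toll-like receptors and adaptors, Tlr13 was called of 9 tested (2.00-fold, 0.948 FPKM in DKO and 0.475 FPKM in Ctrl), and the adaptors Myd88 and Ticam1 were not, at 9.09 and 7.18 FPKM in DKO and 8.53 and 6.15 FPKM in Ctrl. Tlr7 and Tlr8 were not called either (1.37-fold and 1.59-fold) but stood at an unadjusted Cuffdiff p under 0.05. The median ratio of the 9 was 1.07, and all 8 untested genes in this list had higher values in DKO.

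Lyn, a Src-family kinase of myeloid and B cells, was at 8.64 FPKM in DKO and 8.39 FPKM in Ctrl, a ratio of 1.03 (q = 0.948, authors' deposited table). Fgr, another kinase of this family, was at 0.282 FPKM in DKO and 0.229 FPKM in Ctrl and was not tested. Csf2rb, the shared signaling chain of the receptors for GM-CSF, interleukin 3 and interleukin 5, was at 0.768 FPKM in DKO and 0.439 FPKM in Ctrl and was not tested. Its copy Csf2rb2, which holds 18.4% of the 50-base windows of the Csf2rb transcript, was at 0.674 FPKM in DKO and 0.381 FPKM in Ctrl. The ligand gene Csf1 rose 1.26-fold, at 19.2 FPKM in DKO and 15.2 FPKM in Ctrl, and Csf2ra, the GM-CSF receptor chain that binds the ligand, 1.38-fold. Il34, the other ligand of Csf1r, was not called at 3.22 FPKM in DKO and 3.02 FPKM in Ctrl.

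Gpnmb, a transmembrane glycoprotein of lysosomes in macrophages, had the second highest ratio of all members. It was at 1.01 FPKM in DKO and 0.407 FPKM in Ctrl (2.48-fold, q = 0.00158, authors' deposited table). Only 0.033% of all tested genes had a lower mean FPKM. With 1 FPKM added to both genotypes, the log2 ratio of Gpnmb went from 1.31 to 0.52. Its locus lies on chromosome 6 at 48986517 to 49008181 in mm9.

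Markers of other cells of the ventricle were read beside these values. Fibroblast markers moved in the same direction as the members, with 7 of 10 called higher and a summed level of 1377 FPKM in DKO and 1104 FPKM in Ctrl, led by Postn (2.18-fold), Col3a1 (1.51-fold) and Col1a2 (1.49-fold). The 12 cardiomyocyte markers, none of them called but 4 at an unadjusted Cuffdiff p under 0.05, all had ratios below 1 and they summed to 77476 FPKM in DKO and 90780 FPKM in Ctrl. Blood endothelial markers summed to 553 FPKM in DKO and 588 FPKM in Ctrl, with none of 11 called and 1 at an unadjusted p under 0.05. Of these, Egfl7 and Eng were the highest, at 84.9 and 80.4 FPKM in DKO and 90.6 and 82.7 FPKM in Ctrl. Of the 8 smooth muscle and pericyte markers, Acta2 was called (1.25-fold). The haemoglobin loci, which track blood in the tissue, were not called, at 793 and 429 FPKM in DKO against 774 and 416 FPKM in Ctrl. Mast cell markers (6.83 FPKM in DKO and 6.71 FPKM in Ctrl, led by Mcpt4 and Cma1) and dendritic cell markers (12.5 FPKM in DKO and 10.4 FPKM in Ctrl, led by Zbtb46 and Clec9a) held no call among 4 and 2 tested genes, nor any at an unadjusted p under 0.05. Zbtb46 made up most of the dendritic cell sum, at 7.96 FPKM in DKO and 7.89 FPKM in Ctrl. The 5 dendritic cell markers that Cuffdiff did not test all had higher values in DKO. The most abundant of these were Batf3, at 1.08 FPKM in DKO and 0.276 FPKM in Ctrl, and Cd209a, at 0.921 FPKM in DKO and 0.172 FPKM in Ctrl. The part of other cell types in the members' values was not tested.

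**Figure D4:**
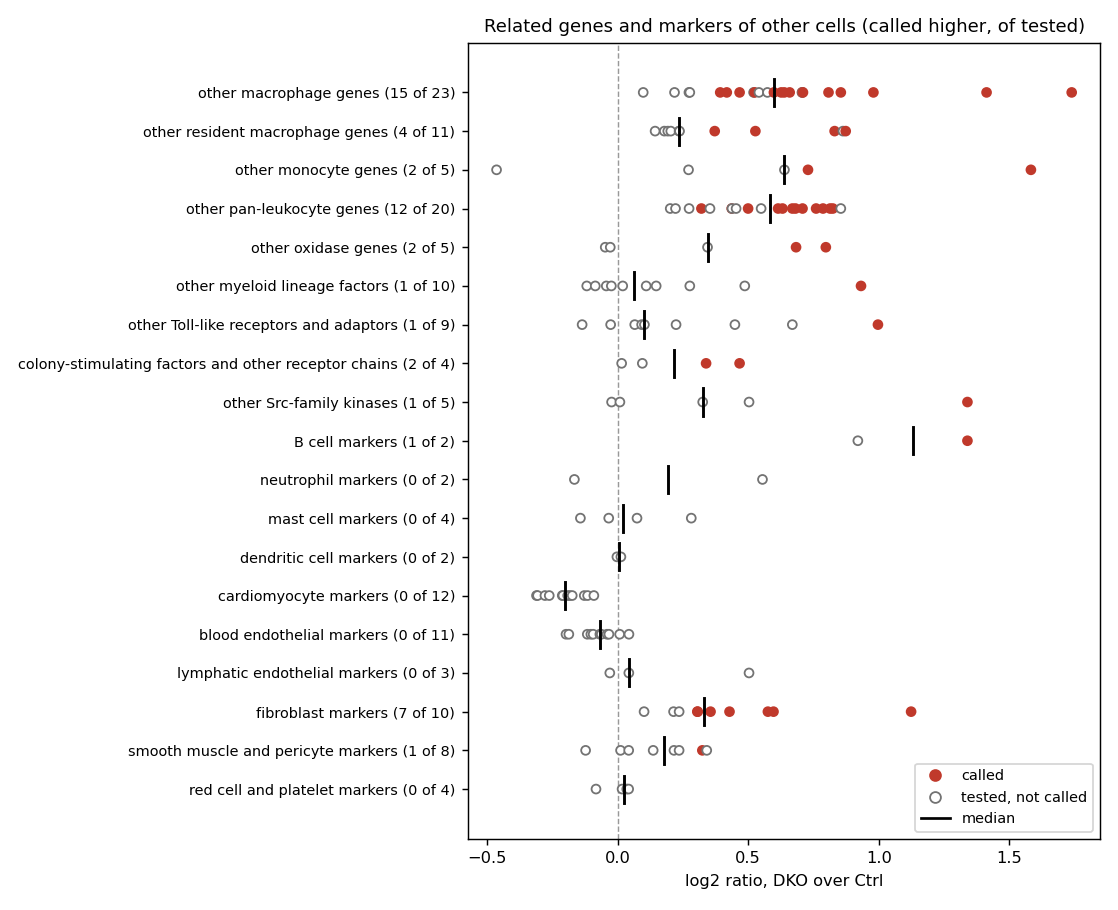
Log2 ratio of DKO over Ctrl for each tested gene of the related lists and of the markers of other cell types, with filled circles for called genes, bars for the median, and the number called higher of those tested in parentheses (T and NK cell markers held no tested gene). The lists of other macrophage genes (15 of 23) and other pan-leukocyte genes (12 of 20, Arhgdia among the 12) lie to the right, and the cardiomyocyte markers lie left of 0.

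At the level of transcripts, 31 members had 1 listed isoform and 8 had 2. Of the 36 members with a tested isoform, 19 had one called higher, where 1.9% of all tested isoforms were called higher. The numbers were 21 by start site group, against 2.95% of all groups, and 21 by coding sequence, against 2.98% of all coding sequences. At none of these levels was a member called lower. The share of all features called lower was not computed for these levels, and among all tested genes it was 3.06%. Reads that fit both isoforms of a gene were shared out by the authors' software, which makes isoform values less certain than the gene's total.

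In Ptprc, Lcp1 and Cd84 the more abundant isoform carried the call. The Ptprc isoform of 5247 bases rose 1.55-fold, at 2.85 FPKM in DKO and 1.83 FPKM in Ctrl. The longer one of 5664 bases, at 0.571 FPKM in DKO and 0.238 FPKM in Ctrl, was not tested. The main Lcp1 isoform was at 9.31 FPKM in DKO and 6.16 FPKM in Ctrl (1.51-fold), and the other, with a start site of its own, was at 1.72 FPKM in DKO and 0.647 FPKM in Ctrl and was not called. The main Irf5 isoform was not called, at 2.85 FPKM in DKO and 1.56 FPKM in Ctrl (q = 0.115, authors' deposited table).

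In Cd163 and Lyn the isoforms had ratios in opposite directions, and none of them was called. The Cd163 isoform of 4492 bases was at 4.82 FPKM in DKO and 2.48 FPKM in Ctrl, or 80.5% and 52.7% of the gene. The one of 4409 bases was at 1.17 FPKM in DKO and 2.23 FPKM in Ctrl. The Lyn isoforms differ in length by 63 bases. The longer was at 4.39 FPKM in DKO and 6.36 FPKM in Ctrl, or 50.8% and 75.8% of the gene, and the shorter was at 4.25 FPKM in DKO and 2.03 FPKM in Ctrl. The q-values were 0.154 and 0.783 for the Cd163 isoforms and 0.355 and 0.657 for those of Lyn in the authors' deposited table. F13a1 and Msr1 also had 2 tested isoforms each, none called, with all 4 ratios between 1.10 and 2.11.

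**Figure D5:**
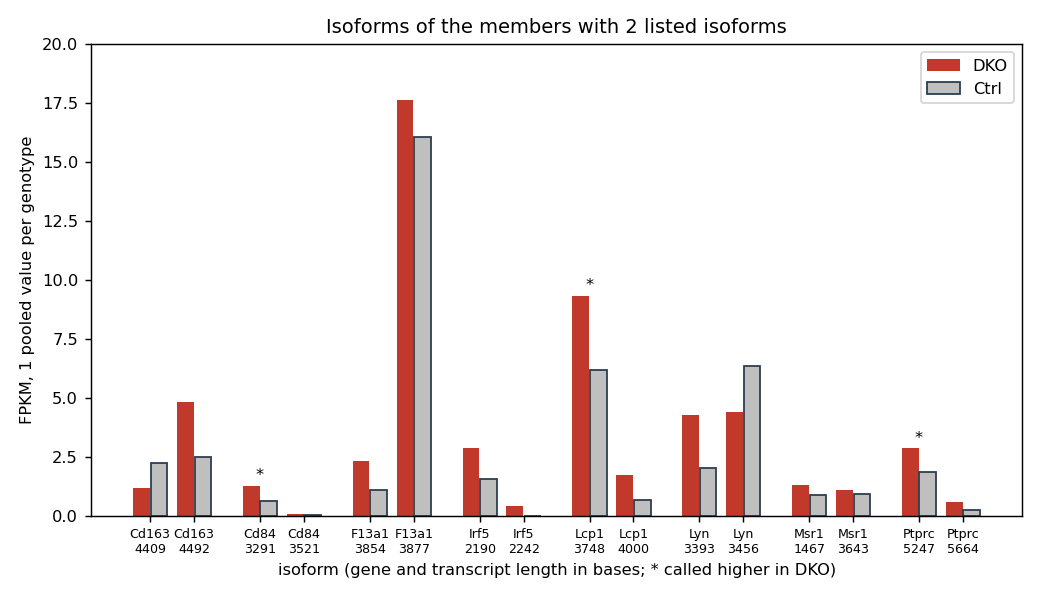
FPKM of each isoform of the 8 members with 2 listed isoforms, DKO (red) left of Ctrl (grey), labelled by gene and transcript length in bases, with a star where the isoform was called higher. The isoforms of Cd163 and Lyn differ in direction, and the F13a1 isoform of 3877 bases is the most abundant.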

How the data were processed

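Ventricle RNA of 4 DKO and 4 Ctrl mice was made into single-end Illumina libraries after the atria were removed, per the labels' protocols. The submitters' processing notes name TopHat2 2.0.9, Cufflinks 2.1.1, Cuffdiff 2.1.1 and the mouse build mm9. Which annotation and settings were used is not stated there. The deposited FPKM values are 1 per genotype, pooled over its animals, per the file headers. The p-values and q-values are those of the authors' Cuffdiff comparison, per the file headers. Depth per library is unknown, so no interval or detection floor was computed and no test over animals could be run. Ratios of DKO over Ctrl were recomputed from the FPKM values, counts and medians were checked on simulated data, and positions count from 1. Recomputing the q-values by the Benjamini-Hochberg method from the p-values of 12133 genes gave the deposited ones to within 5.18e-07, and 385 called genes share the smallest q.

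All 39 members were named. From each of 21 gene lists, up to 3 called genes with the largest change and at least 1 FPKM were named, or the 2 tested genes with the highest mean FPKM where none was called. Some results are not reported here. Genes named beyond this were chosen after their values were seen. They include Pdpn, Batf3, Cd209a, Cd79b, Cd3e, Cd3d, Tlr13, Il34, Rac1, Ly6c1, Csf2rb2, Fcgr1, Ms4a6c, Ly6i and Arhgdia. Sepp1, Gas6, Fcgrt, Tlr7 and Tlr8 are also among them. Members and lists were chosen with earlier results of these data known. Alternatives covered call and fold thresholds, FPKM filters, pseudocounts, scaling, feature levels and gene copies. A deposited subset of the gene table was not used. Computations used Python 3.11.15, pandas 2.3.3, numpy 2.4.6, statsmodels 0.14.6 and matplotlib 3.10.9.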

Additional observations from a re-analysis of the deposited data

How the results depend on the processing

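The 22 members called higher became 4 with a fold of at least 2 (Mpeg1, Gpnmb, Aif1 and Irf5) and 9 at a mean FPKM of at least 5, both of which keep a part of the calls by construction. With a fold of at least 2, the counts were 2 pan-macrophage, 0 pan-leukocyte and 0 oxidase members. At a mean FPKM of at least 5 they were 4 pan-leukocyte and 0 oxidase members. No other pan-leukocyte member reached that level, and the only oxidase member that did was Cyba, which was not called. The share of all tested genes was not computed for these fold and level filters. At a q under 0.01, 15 members were called, among them 5 pan-leukocyte members and 1 oxidase member, Cybb. At a q of at most 0.1, a threshold chosen after seeing the data, 26 members were higher, against 5.45% of all tested genes, and 2 resident members, Cd163 and Folr2, were among them. Leaving out Spi1, also chosen later, gave 21, and leaving out Lyz1, Lyz2, Ly6c2 and Csf2rb gave 20. The median log2 ratio of the tested members, 0.58, was 0.46 with 1 FPKM added to both genotypes, 0.56 with 0.1 FPKM added and 0.59 both after rescaling all tested genes to a median of 0 and from the most abundant isoform of each gene. Of the 39 members, Lyn reversed, to -0.54 with its most abundant isoform, and Irf5, Rac2 and Spi1 lost their call with that isoform (Rac2 and Spi1 at the same ratio, with q-values adjusted over more features), and Irf5 also lost it by start site group and coding sequence, while the direction of the others held under the 3 alternatives run for single members. No paired analysis was possible because the tables hold 1 pooled value per genotype, and for the same reason leaving out single animals was not run.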

Other observations

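Some values of related genes add to the comparisons above. Blk, a Src-family kinase best known from B cells, was given above at 4.46 FPKM in DKO and 1.76 FPKM in Ctrl (q = 0.00158, authors' deposited table). The B cell genes Cd79a and Ms4a1 were at 0.870 and 0.335 FPKM in DKO against 0.620 and 0.235 FPKM in Ctrl, and Cuffdiff tested neither of them. Blk thus stood above both of these genes in both genotypes. Gzma, a granzyme of cytotoxic lymphocytes, was at 0.668 FPKM in DKO and 0.173 FPKM in Ctrl and was not tested. An Irf5 isoform of 2242 bases was at 0.419 FPKM in DKO and 2.82e-04 FPKM in Ctrl and was not tested. Cd79a, Ms4a1, Gzma and the Irf5 isoform were chosen after their values were seen.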
